A study of Rattus norvegicus with 9 samples.

Results

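The 9 genes described here encode the T cell receptor complex and the proteins closest to it: the CD3 chains (Cd3d, Cd3e, Cd3g), the zeta chain (Cd247), the kinases Lck and Zap70, the adaptors Lat and Sla2, and the surface regulator Cd5. They were taken by name, as the probeset whose only gene symbol on the platform was that of the gene. Each of the 9 had 1 probeset, and all 9 were among the 14014 genes tested, out of 18166 genes with a single symbol. The RNA came from hepatic macrophages of male Sprague-Dawley rats, isolated from each liver and measured on biotin-labelled 1-colour Affymetrix arrays. In 1 group of rats the portal vein was narrowed by partial portal vein ligation (PPVL, a ligature tied over a needle that is then withdrawn) and the cells were taken 3 days later. In another group they were taken 10 days after PPVL, and sham rats had the operation with no ligature placed. Each group had 3 rats, 1 array a rat, and the labels give no day for the sham rats and no age. Time since surgery therefore cannot be told apart from the ligation in the comparisons with sham.

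T cells detect antigen through a receptor whose own chains have almost no signalling tail and depend on the CD3 and zeta chains, which carry tyrosine motifs called ITAMs. Lck, a kinase bound to the co-receptors CD4 and CD8, phosphorylates these motifs, Zap70 docks on them and phosphorylates the adaptor Lat, and Lat gathers the enzymes that raise calcium and activate Ras. Cd5 and Sla2 (the Src-like adaptor SLAP2) restrain the signal, Sla2 by bringing the ubiquitin ligase Cbl to the receptor. None of these proteins is a hallmark of macrophages, whose activating receptors signal through Syk, whereas natural killer cells use the zeta chain, Lck, Zap70 and Lat as well. In the liver, T cells and natural killer cells are resident lymphocytes of the sinusoids, beside the Kupffer cells.

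At 3 days after PPVL, Sla2 was 1.92-fold lower than in sham, and it was the 1 gene of the 9 past the test. At 10 days Sla2 was 1.57-fold lower and Cd5 1.50-fold lower than in sham, and these were the 2 genes past the test. The other genes also had lower group means than sham at both days, by 0.21 to 0.60 on the log2 scale, without passing it. Between the days none passed. Values are log2 RMA intensities as deposited, a difference is a log2 difference ± its standard error (SE) with n = 3 rats a group, and adjusted p is that of limma's moderated test with Benjamini-Hochberg adjustment over the 14014 genes, with a threshold of 0.05. In bulk RNA, fewer T or natural killer cells, more RNA of other cells and lower transcript levels per cell cannot be told apart.

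The arrays were close to one another, with medians of 5.21 to 5.26 and correlations across probesets of 0.987 to 0.993. The labels do not say how the macrophages were purified, so their makeup was read from marker genes. General macrophage genes were bright, with means over the 9 arrays of 12.85 for Lyz2, 11.17 for Cd68 and 10.25 for Csf1r. The Kupffer cell genes Clec4f (5.03), Cd163 (4.50) and Vsig4 (4.26) lay close to the limit of 4.16 under which genes were not tested. Lymphocyte genes were measured well above that limit. Means were 10.26 for Cd8a, 9.98 for the T and natural killer cell adhesion receptor Cd2, 10.03 for the natural killer cell receptor Klrd1 and 8.43 for the B cell gene Ms4a1. Ncr1, of the list of natural killer and cytotoxic genes, had a mean of 7.58. Lymphocyte RNA was thus measured beside that of macrophages. Genes listed for other cells also lay above the limit. Means were 7.91 for the hepatocyte gene Alb and 7.60 for the platelet gene Pf4, and the neutrophil gene Fcnb had a sham mean of 10.81. Cd4 (11.17) does not separate the cell types, since rat macrophages also express CD4.

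The promoters of 4 of the genes are shown because they stand for the patterns in the data. Sla2 and Cd5 are the genes past the test, and Cd3g and Cd3d are neighbours on chromosome 8 that vary together. Each sequence is from RefSeq on the rat assembly GRCr8, 5′ to 3′ on the gene's own strand, and runs from 250 bases before the annotated start to 50 after it. All 9 genes were found in that set, Lck with 2 starts. The windows are chr3:165841999-165842298 on the minus strand for Sla2, chr1:216811160-216811459 on the minus strand for Cd5, chr8:54183869-54184168 on the minus strand for Cd3g and chr8:54185269-54185568 on the plus strand for Cd3d. The genome build behind the arrays is not given in the sources used here. Capitals mark matches on either strand to AGGAAG (an ETS core), TGTGGT (a RUNX core), CAGGTG (an E box) and CTTTGA (a TCF core). No 2 matches overlap in these 4 windows.
Sla2: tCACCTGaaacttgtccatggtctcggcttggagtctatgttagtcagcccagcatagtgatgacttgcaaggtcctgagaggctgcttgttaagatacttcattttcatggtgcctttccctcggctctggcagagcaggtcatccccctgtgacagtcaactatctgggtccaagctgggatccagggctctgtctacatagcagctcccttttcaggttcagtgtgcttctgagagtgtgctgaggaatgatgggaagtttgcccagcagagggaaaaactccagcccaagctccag
Cd5: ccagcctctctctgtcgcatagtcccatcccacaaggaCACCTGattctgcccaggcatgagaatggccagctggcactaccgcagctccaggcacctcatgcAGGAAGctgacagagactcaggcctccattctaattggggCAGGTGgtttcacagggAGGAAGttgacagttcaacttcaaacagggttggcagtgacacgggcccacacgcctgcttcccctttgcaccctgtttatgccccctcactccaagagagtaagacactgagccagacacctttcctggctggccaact
Cd3g: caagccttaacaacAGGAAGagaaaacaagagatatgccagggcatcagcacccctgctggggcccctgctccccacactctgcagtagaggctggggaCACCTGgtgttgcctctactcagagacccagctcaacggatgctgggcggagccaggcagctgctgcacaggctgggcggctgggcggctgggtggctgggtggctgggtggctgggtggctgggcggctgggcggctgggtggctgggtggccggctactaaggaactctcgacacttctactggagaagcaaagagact
Cd3d: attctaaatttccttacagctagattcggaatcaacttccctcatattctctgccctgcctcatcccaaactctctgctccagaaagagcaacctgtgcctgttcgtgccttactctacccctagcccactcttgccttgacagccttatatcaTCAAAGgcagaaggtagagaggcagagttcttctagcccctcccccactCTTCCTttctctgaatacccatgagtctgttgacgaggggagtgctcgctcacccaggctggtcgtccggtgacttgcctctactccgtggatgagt

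The Cd3g and Cd3d starts lie 1.6 kb apart and are read away from each other, and the start of Cd3e lies 26.25 kb from that of Cd3d. The ETS letters were in the window of 8 of the 9 genes, all but Sla2, and in 34.5% of the 33469 promoter windows of the set. In Cd5 they occur at 147 and at 90 bases before the start (-147 and -90), in Cd3d at -47 and in Cd3g at -236. The E box letters were in 6 of the 9 genes and 18.8% of all windows. The TCF letters were in 3 (Cd3d, Cd247 and Zap70) and 16.1%, and the RUNX letters in 2 (Lck and Lat) and 17.3%. In Sla2 the 1 match was an E box at -249. These matches describe the letters of the windows and no binding was measured.

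Sla2 had the widest separation of the 9 genes. Its log2 intensity was 10.19, 10.26 and 10.49 in sham rats 1, 2 and 3. At 3 days it was 9.40, 9.35 and 9.38, and at 10 days 9.45, 9.88 and 9.66. Every sham rat lay above every ligated rat, the 3-day rats sat within 0.046 of one another, and all 10-day rats lay between the 3-day rats and sham. Sla2 fell at 3 days by 0.94 ± 0.11 (95% interval -1.19 to -0.69, adjusted p = 0.00364), to 52.2% of the sham intensity. At 10 days it fell by 0.65 ± 0.11 (95% interval -0.90 to -0.40, adjusted p = 0.0449). The value at 10 days was higher than at 3 days by 0.29 ± 0.11, with no overlap between the groups, but this did not pass the test (unadjusted p = 0.0290, adjusted p = 0.395). Of all genes tested, 6.9% were higher at 10 than at 3 days with no overlap. The 3-day fall of Sla2 passed with each of the 9 arrays left out in turn (adjusted p 0.00538 to 0.0172). The 10-day fall passed without 3-day rat 1 and without 3-day rat 3. It was lost without sham rat 1, 2 or 3, without 3-day rat 2 and without 10-day rat 1, 2 or 3, where its adjusted p reached 0.150.

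**Figure D1:**
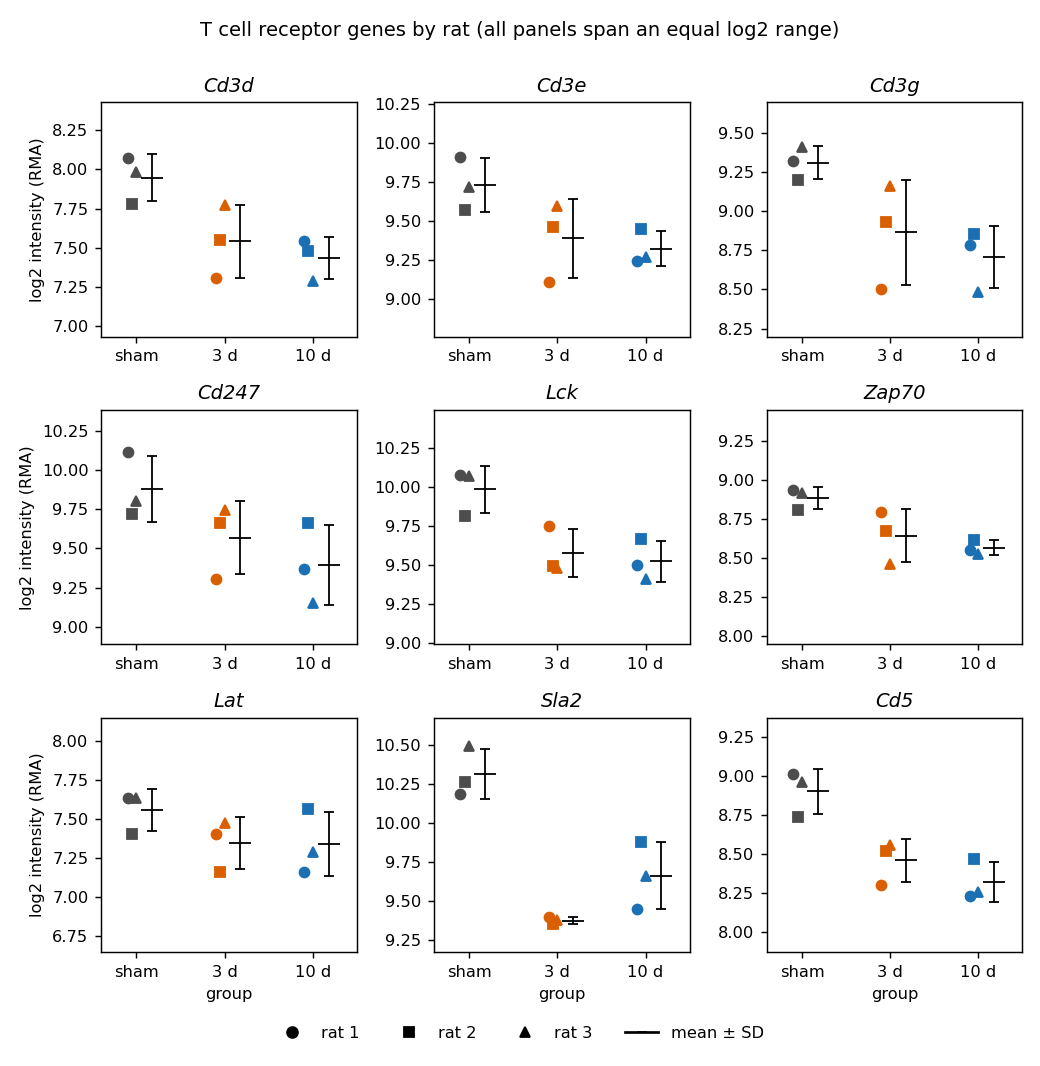
Log2 RMA intensity (vertical axis) of the 9 genes in sham rats and in rats 3 and 10 days after PPVL, with 1 point a rat (circle, square and triangle for rats 1, 2 and 3) and the group mean ± SD beside them. All panels span an equal log2 range, so distances can be compared between panels. The Sla2 panel shows the 3-day rats at 9.35 to 9.40, below the sham rats at 10.19 to 10.49.

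Cd5, a scavenger-receptor family protein of T cells and of a subset of B cells, had values of 9.01, 8.74 and 8.96 in the sham rats. It had 8.30, 8.52 and 8.56 at 3 days, and 8.23, 8.47 and 8.26 at 10 days. No ligated rat reached the lowest sham rat, and the days overlapped. Cd5 fell at 10 days by 0.58 ± 0.10 (95% interval -0.81 to -0.35, adjusted p = 0.0449). At 3 days its difference was -0.44 ± 0.10 with an adjusted p of 0.0529, just outside the threshold. That value moved inside the threshold with a filter at the 50th percentile, with quantile normalization and with an intensity trend and robust moderation (adjusted p as low as 0.0394). The 10-day call was lost without sham rat 1, 2 or 3, without 3-day rat 2 and without 10-day rat 1, 2 or 3 (adjusted p up to 0.159).

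Of the 9 genes, 1 fell at 3 days and 2 fell at 10 days, and none rose. Of all genes tested, 0.714% fell and 2.15% rose at 3 days, and 0.243% fell and 0.492% rose at 10 days. Between the days none of the 9 passed the test, against 0.05% of all genes lower and 0.0214% higher at 10 days. At an unadjusted p under 0.05 in either direction there were 7 of the 9 at 3 days, against 15.5% of all genes, and 8 at 10 days, against 16.2%. Between the days there was 1 of the 9, a share near the 11.3% of all genes. At 3 days 6 of the 9 were lower with no overlap between the groups, against 8.66% of all genes, and at 10 days 8 of the 9, against 11.1%. Over the 3 groups together the moderated F test passed for 2, Sla2 (adjusted p = 0.0103) and Cd5 (adjusted p = 0.0383), where 2.35% of all genes passed. For the other genes its adjusted p ran from 0.0814 for Lck to 0.477 for Lat.

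The median difference of the 9 genes was -0.41 at 3 days, where the median of all genes was -0.014. At 10 days it was -0.49, and the median of all genes was -0.0004. All 9 differences were below 0 at each day, against 55% of all genes at 3 days and 50.2% at 10 days. Both comparisons use the same 3 sham arrays, so they are not independent of each other. Sham rat 2 was the lowest sham rat for 8 of the 9 genes, all but Sla2. From 3 to 10 days the median was -0.08 and 8 of the 9 differences were below 0, against 48.1% of all genes. In 8 genes the group means ran from sham through 3 days to 10 days in falling order, with neighbouring days that overlapped, and in Sla2 the 3-day mean was the lowest.

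**Figure D2:**
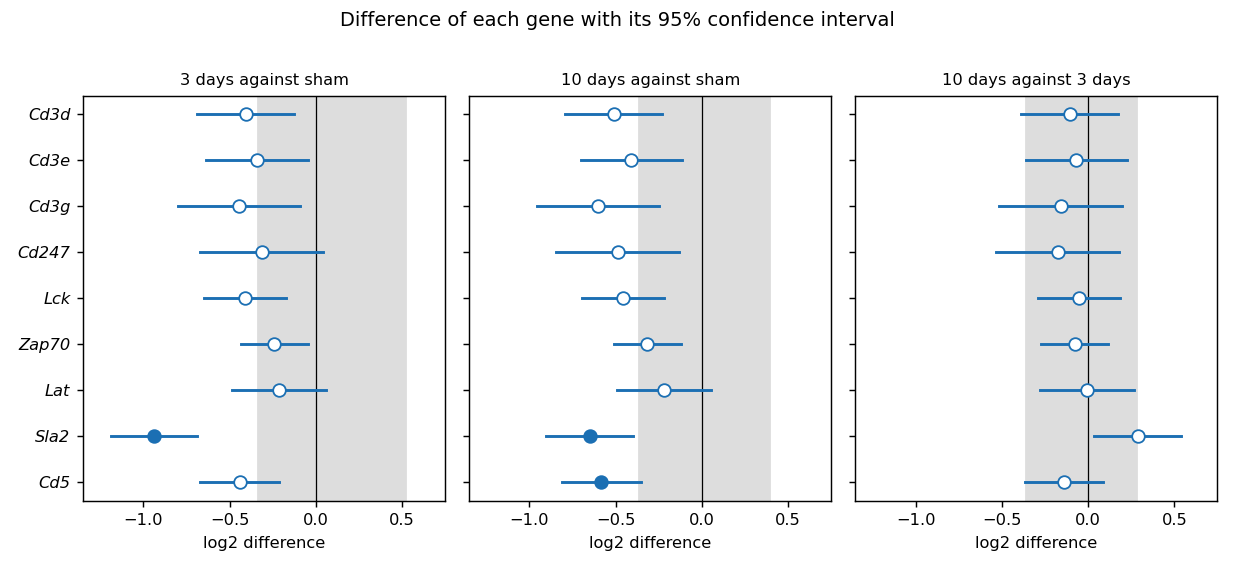
Log2 difference of each gene (horizontal axis) with its 95% interval in the 3 comparisons. Filled points passed the test (Sla2 at 3 days, Sla2 and Cd5 at 10 days), and the grey band holds the central 95% of all 14014 genes. At 10 days all points except those of Zap70 and Lat lie to the left of the band.

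Among the chains of the complex, Cd3g, which pairs with Cd3e in the receptor, had the largest mean differences. It was 9.32, 9.20 and 9.41 in sham rats, 8.50, 8.93 and 9.16 at 3 days, and 8.78, 8.86 and 8.48 at 10 days. Both ligated groups lay below all sham rats, but the 3-day rats spanned 0.66, against 0.21 in the sham rats. The differences were -0.45 ± 0.16 at 3 days (adjusted p = 0.197) and -0.60 ± 0.16 at 10 days (adjusted p = 0.106). Neither passed the test.

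Cd3d, the chain that pairs with Cd3e on the other side of the receptor, was 8.07, 7.78 and 7.98 in sham rats. It was 7.30, 7.55 and 7.77 at 3 days, and 7.54, 7.48 and 7.29 at 10 days. The highest 3-day rat, rat 3, lay just under the lowest sham rat, and the 10-day rats were clear of sham. The differences were -0.41 ± 0.13 (adjusted p = 0.137) and -0.51 ± 0.13 (adjusted p = 0.0905). Cd3e, which is in both pairs, was 9.91, 9.57 and 9.72 in sham rats, 9.11, 9.46 and 9.60 at 3 days and 9.24, 9.45 and 9.27 at 10 days. Its 3-day rat 3 lay above sham rat 2, so those groups overlapped. The differences of Cd3e were -0.34 ± 0.13 (adjusted p = 0.237) and -0.41 ± 0.13 (adjusted p = 0.168).

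Cd247, the zeta chain with the most ITAMs of the complex, was 10.12, 9.72 and 9.80 in sham rats. It was 9.30, 9.66 and 9.74 at 3 days, and 9.37, 9.66 and 9.15 at 10 days. Sham rat 1 stood above the other sham rats, and at 3 days rat 3 lay above sham rat 2. The differences were -0.31 ± 0.16 (adjusted p = 0.395) and -0.49 ± 0.16 (adjusted p = 0.176), and the 3-day interval of -0.67 to 0.04 includes 0.

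In all 4 chains, zeta included, the 3-day rats stood in 1 order, with rat 1 the lowest and rat 3 the highest. As deviations from each gene's mean over the 9 arrays, the 3 CD3 chains averaged -0.39 in 3-day rat 1, -0.05 in rat 2 and 0.15 in rat 3. Lck and Zap70 averaged 0.08, -0.11 and -0.23 in those rats, which is the opposite order. The score of natural killer and cytotoxic genes ran in the order of the kinases, at 0.16, 0.03 and -0.29. The score of T cell identity genes was nearly level, at -0.04, -0.08 and -0.0014. These orders were noticed in the values, and their relation was not tested.

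**Figure D3:**
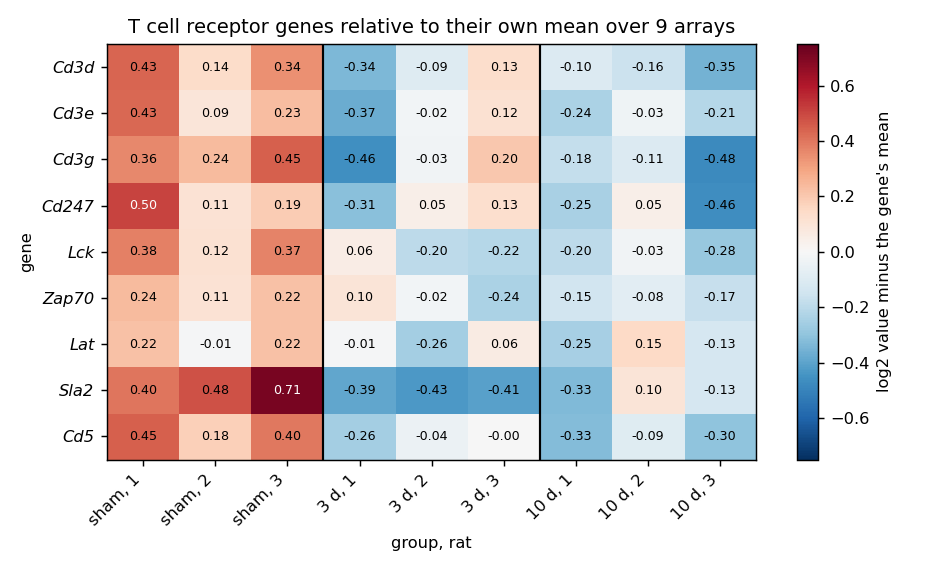
Log2 intensity of each gene (rows) relative to its own average, in each rat (columns, by group), with the value printed in the cell. Red is above and blue below the gene's mean. In 3-day rat 1 the chains are at -0.46 to -0.31 while Lck and Zap70 are at 0.06 and 0.10, and in 3-day rat 3 the chains are at 0.12 to 0.20 while Lck and Zap70 are at -0.22 and -0.24.

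The kinase Lck, which starts the signal, was 10.07, 9.81 and 10.06 in sham rats, 9.75, 9.49 and 9.48 at 3 days and 9.49, 9.66 and 9.41 at 10 days. Both ligated groups lay below all sham rats, 3-day rat 1 just under sham rat 2. The differences were -0.41 ± 0.11 (adjusted p = 0.0811) and -0.46 ± 0.11 (adjusted p = 0.0740). Zap70, which docks on phosphorylated ITAMs, was 8.93, 8.80 and 8.91 in sham rats. It was 8.79, 8.67 and 8.46 at 3 days, and 8.55, 8.62 and 8.53 at 10 days. The 10-day rats were close together and below all sham rats, and 3-day rat 1 almost reached sham rat 2. The differences of Zap70 were -0.24 ± 0.09 (adjusted p = 0.201) and -0.32 ± 0.09 (adjusted p = 0.114).

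Lat, the membrane scaffold phosphorylated by Zap70, had the smallest differences of the 9 genes from sham. It was 7.64, 7.41 and 7.64 in sham rats, 7.40, 7.16 and 7.47 at 3 days and 7.16, 7.57 and 7.29 at 10 days. Both ligated groups overlapped sham, since 3-day rat 3 and 10-day rat 2 lay above sham rat 2. The differences were -0.21 ± 0.12 (95% interval -0.49 to 0.06, adjusted p = 0.455) and -0.22 ± 0.12 (95% interval -0.49 to 0.05, adjusted p = 0.409).

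The 9 genes varied together over the arrays, the chains most closely. Over the 36 pairs Pearson's r ran from 0.496 to 0.968 with a median of 0.718, and 13 pairs were above 0.8. Cd3d with Cd3g gave the highest value, 0.968. These values include the distance between groups that all the genes share. With each group's mean taken off, r ran from -0.522 to 0.925 with a median of 0.344, and 9 pairs were below 0. Cd5 was closest to the rest, with r = 0.981 against the mean of the other 8 genes. Zap70 (0.705), Lat (0.735) and Sla2 (0.776) were farthest. With group means off, the median r of a gene with the others was 0.670 for Cd5, 0.612 for Cd247, 0.169 for Sla2 and -0.125 for Zap70. All points share the 9 arrays, and no test was made.

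Sla2 was set against the CD3 chains in a description chosen after the values had been seen. Sla2 minus the mean of the 3 CD3 chains, each as a deviation from its mean over the arrays, was 0.23 ± 0.20 (SD, n = 3) in sham rats, -0.31 ± 0.29 at 3 days and 0.09 ± 0.21 at 10 days. The single values were -0.0055, 0.32 and 0.37 in sham rats, 0.0024, -0.38 and -0.56 at 3 days and -0.16, 0.20 and 0.22 at 10 days. The 3-day and sham rats overlapped on this scale, since 3-day rat 1 lay just above sham rat 1. For Cd5 the corresponding means were 0.04 ± 0.02, -0.01 ± 0.14 and -0.03 ± 0.11.

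The genes with the pattern most like that of the 9 were ranked by r over the 9 arrays with the mean of the 9. They were Prkca (0.978), a protein kinase C, RT1-CE12 (0.976), a rat major histocompatibility class I gene, Dele1 (0.972), which signals mitochondrial stress, Acap1 (0.953), an Arf GTPase-activating protein, and Deaf1 (0.948), a transcription factor. Prkca fell at 3 days by 0.53 ± 0.10 (adjusted p = 0.0205), a call lost without sham rat 1, 2 or 3 and without 3-day rat 1 or 2 (adjusted p up to 0.0734). Acap1 fell at 10 days by 0.56 ± 0.10 (adjusted p = 0.0449), a call kept only without 3-day rat 1 and without 3-day rat 3 when single arrays were left out (adjusted p up to 0.153). Prkca was 8.63, 8.52 and 8.63 in sham rats, 7.95, 8.03 and 8.22 at 3 days and 8.05, 8.26 and 7.95 at 10 days. Every ligated rat was lower than every sham rat in Prkca. With group means off the closest genes were Dele1 (0.957), Mturn (0.955), Rpap2 (0.955), Cd40lg (0.954), which encodes the CD40 ligand of activated T helper cells, and Dffb (0.951), a nuclease of dying cells. Cd40lg did not differ past the test in any comparison (adjusted p 0.799, 0.931 and 0.884). It ran from 7.93 in sham rat 2 to 8.92 in 3-day rat 3, so it varied between rats within the groups. Both rankings take the highest r among all other genes tested, over only 9 arrays. Values this high can arise from such a choice without any relation, and no test was made.

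Other genes of the pathway were read from 4 lists. Of 10 receptor chains and receptor-associated adaptors, 3 were on the array with a single symbol and tested (Lax1, Sit1 and Trat1). None passed the test at either day. The smallest p in that list was that of Lax1, an adaptor of T and B cells that resembles Lat. It was 8.49, 8.62 and 8.50 in sham rats, 9.37, 8.71 and 9.57 at 3 days and 9.17, 9.22 and 9.41 at 10 days. All ligated rats were above sham in Lax1, by 0.68 ± 0.18 at 3 days (adjusted p = 0.0927) and 0.73 ± 0.18 at 10 days (adjusted p = 0.0946).

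Of 11 co-receptors and costimulatory receptors tested, 1 fell at 3 days and 2 fell at 10 days, none rose, and the median differences were -0.20 and -0.31. Differences were of both signs, with 7 of the 11 below 0 at 3 days, against 55% of all genes, and 9 at 10 days, against 50.2%. Cd7, an immunoglobulin-family receptor of T and natural killer cells, was 12.45, 12.25 and 12.29 in sham rats, 11.82, 11.78 and 11.68 at 3 days and 11.81, 11.91 and 11.84 at 10 days. The ligated rats were all below sham and the days overlapped. Cd7 fell by 0.57 ± 0.07 at 3 days (adjusted p = 0.00411) and by 0.48 ± 0.07 at 10 days (adjusted p = 0.0449). Cd6, a relative of Cd5 encoded beside it on chromosome 1, was 8.40, 8.13 and 8.12 in sham rats, 7.66, 7.94 and 8.06 at 3 days and 7.44, 7.66 and 7.64 at 10 days. Cd6 fell by 0.64 ± 0.12 at 10 days (adjusted p = 0.0491), and its 3-day difference was -0.33 ± 0.12 (adjusted p = 0.198).

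Of 20 kinases, adaptors and effectors downstream, 1 fell at each day and none rose, with median differences of -0.11 and -0.15. Below 0 were 13 of the 20 at 3 days, against 55% of all genes, and 14 at 10 days, against 50.2%. The gene that fell was Grap2 (GADS), the adaptor that links phosphorylated Lat to SLP-76. Grap2 was 8.57, 8.62 and 8.68 in sham rats, 7.72, 7.96 and 8.08 at 3 days and 7.86, 8.19 and 8.05 at 10 days, so that every ligated rat lay below sham. It fell by 0.70 ± 0.11 (adjusted p = 0.0103) and by 0.59 ± 0.11 (adjusted p = 0.0485). Of 16 inhibitors and regulatory phosphatases of the signal other than Cd5 and Sla2, none passed the test, with medians of -0.10 and -0.15. Below 0 were 9 of the 16 at 3 days, a share near the 55% of all genes, and 11 at 10 days, against 50.2%. The smallest p was that of the phosphatase Ubash3b (-0.34 ± 0.07 at 10 days, adjusted p = 0.0558). Between the days no gene of the 4 lists passed the test. The 3-day calls of Cd7 and Grap2 passed with each array left out in turn. The 10-day calls of Cd6, Cd7 and Grap2 passed without 3-day rat 1 and without 3-day rat 3 and were lost without any other single array (adjusted p up to 0.174, 0.150 and 0.158).

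Genes listed for T cell transcription and identity were mostly lower alongside the 9 genes, though not all of them are confined to T cells. Of the 17 tested, 16 were below 0 at 3 days and 17 at 10 days, with median differences of -0.26 and -0.33. The transcription factor Tcf7 fell at 3 days by 0.38 ± 0.08 (adjusted p = 0.0376) and Runx3 fell at 10 days by 0.57 ± 0.10 (adjusted p = 0.0449). The call of Tcf7 was kept without 3-day rat 3 and without 10-day rat 3, and that of Runx3 without 3-day rat 1 and without 3-day rat 3. Both were lost without any other single array (adjusted p up to 0.126 and 0.150). The mean score of the list, as deviations from the genes' means, was 0.12 to 0.26 in sham rats, -0.08 to -0.0014 at 3 days and -0.20 to -0.06 at 10 days, without overlap of sham and either ligated group.

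Of 20 natural killer and cytotoxic genes, none passed the test at 3 days and Gzmc, a granzyme, fell at 10 days (-0.70 ± 0.13, adjusted p = 0.0491). That call was kept without 3-day rat 1 and without 3-day rat 3 and lost without any other single array (adjusted p up to 0.169). The median differences were -0.24 and -0.43, and 19 of the 20 were below 0 at each day. The list joins natural killer and cytotoxic genes, so its score is not that of natural killer cells alone. Scores were 0.15 to 0.25 in sham rats, -0.29 to 0.16 at 3 days, which overlaps sham, and -0.21 to -0.15 at 10 days. The summed linear intensity of the list was 34868 to 36709 in sham rats, 25336 to 34867 at 3 days and 26875 to 28218 at 10 days. For the 9 genes it was 5580 to 6429, 4169 to 4708 and 4019 to 4842. The part of T cell and natural killer cell content in the differences of the 9 genes was not tested.

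Markers of macrophages and B cells had differences of the opposite sign. Of 17 macrophage and Kupffer cell genes, 14 were above 0 at 3 days, with a median of 0.39, and 13 at 10 days, with a median of 0.26. At 3 days Aif1 rose by 0.88 ± 0.14 (adjusted p = 0.0119) and Lyz2 by 0.37 ± 0.07 (adjusted p = 0.0200), and at 10 days none passed. The call of Lyz2 was lost without sham rat 1, 2 or 3 and without 3-day rat 1 or 2 (adjusted p up to 0.0733). The summed linear intensity of the macrophage list was 9769 to 10855 in sham rats, 13218 to 14356 at 3 days and 11879 to 13015 at 10 days. This sum depends most on Lyz2, the brightest gene of the list (mean 12.85), and is no measure of macrophage content. The list score gave another order, since 3-day rat 3 had the lowest 3-day sum and the highest score (0.46). Of 12 B cell genes, 3 rose and 1 fell at 3 days and 1 rose at 10 days, with medians of 0.37 and 0.54. The B cell genes that rose at 3 days were Vpreb3, Cr2 and Tnfrsf13c (0.75 to 0.83), and the 1 that fell was Blnk (-0.76 ± 0.16). Leaving out sham rat 1, 2 or 3 ended at least 1 of the calls of Vpreb3, Cr2 and Blnk, as did leaving out any ligated rat for Blnk and 3-day rat 1 or 3 for Vpreb3 (adjusted p up to 0.101, 0.0704 and 0.127). Tnfrsf13c, a receptor for the survival factor BAFF, also rose at 10 days (0.78 ± 0.13, adjusted p = 0.0449), a call lost without sham rat 1, 2 or 3 and without 10-day rat 1, 2 or 3 (adjusted p up to 0.150). Of 8 dendritic cell genes 3 fell at 3 days (Flt3, Clec9a and Irf8), of 8 neutrophil genes 2 rose (Csf3r and Fcnb) and of 6 hepatocyte genes 1 rose (Hp), while no gene of these lists passed at 10 days. The dendritic cell genes differed in both directions, with 5 of the 8 below 0 at 3 days and 4 at 10 days. Their medians were -0.14 and -0.06, and the highest 3-day difference was 0.42. All 8 neutrophil genes were above 0 at 3 days, with a median of 0.94, and 6 at 10 days, with a median of 0.19. The summed linear intensity of the neutrophil list was 2191 to 4368 in sham rats, 5737 to 9064 at 3 days and 3734 to 5501 at 10 days. Its score was -1.29 in sham rat 1, against 0.17 and 0.18 in sham rats 2 and 3. The call of Csf3r was lost without sham rat 1 or 2, without 3-day rat 1 or 2 and without 10-day rat 1 or 2 (adjusted p up to 0.0978). That of Hp was lost without sham rat 1 or 2 and without 3-day rat 1 or 3 (adjusted p up to 0.0697), and that of Clec9a without sham rat 2 or 3 (adjusted p up to 0.0636). None of 6 platelet genes and 7 endothelial and stellate cell genes passed at either day. The part of these cells in the differences of the 9 genes was not tested.

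Myeloid cells signal through the ITAMs of Tyrobp and Fcer1g and the kinase Syk, a relative of Zap70. The genes of this list are not confined to myeloid cells, and the cells behind their differences were not tested. Of the 9 genes of the list tested, 2 rose at 3 days and none fell. Syk was 8.06, 8.22 and 8.24 in sham rats, 8.55, 8.49 and 8.56 at 3 days and 8.50, 8.43 and 8.47 at 10 days, with every ligated rat above sham. Syk rose by 0.36 ± 0.06 at 3 days (adjusted p = 0.0199) and was 0.29 ± 0.06 higher at 10 days without passing the test (adjusted p = 0.0705). Btk rose by 0.60 ± 0.12 at 3 days (adjusted p = 0.0272). The call of Syk was lost without sham rat 1 or 2 and without 3-day rat 1, 2 or 3 (adjusted p up to 0.0575). That of Btk was lost without sham rat 1 or 3 and without 3-day rat 2 or 3 (adjusted p up to 0.0834). At 10 days none of the 9 passed. The adaptor chains Tyrobp and Fcer1g, which carry ITAMs for myeloid receptors, differed from sham by 0.06 and 0.16 at 3 days (adjusted p = 0.867 and 0.250).

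**Figure D4:**
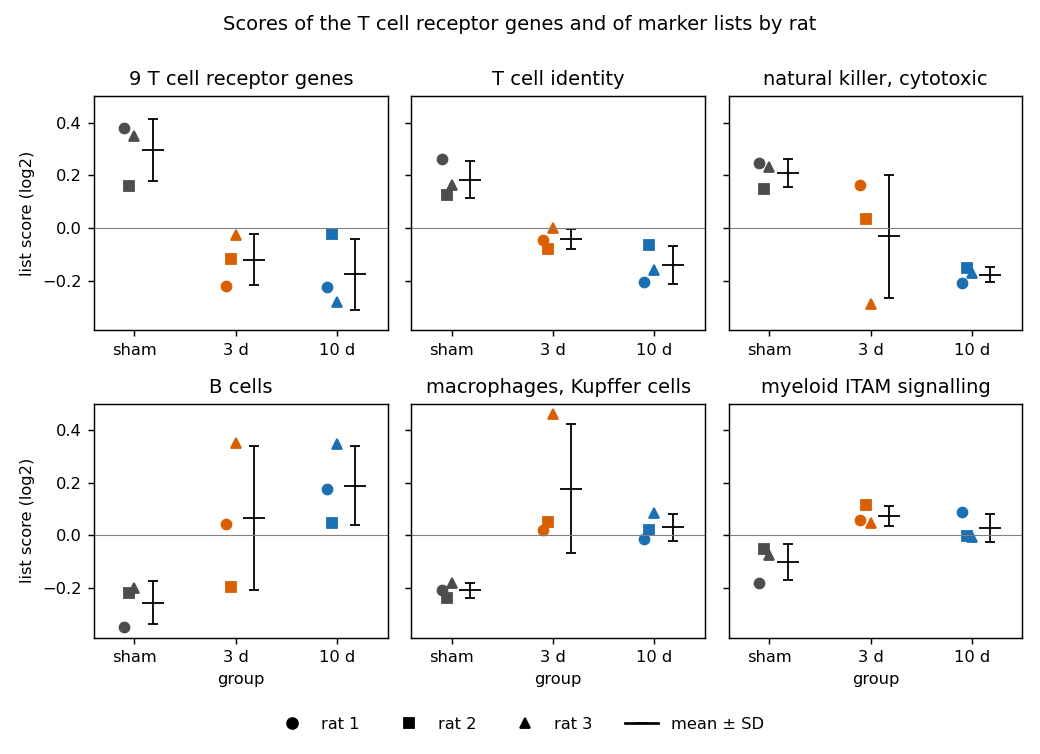
Score of a gene list in each rat (vertical axis, the list's mean deviation in log2 intensity from each gene's own average), for the 9 T cell receptor genes and 5 marker lists, with the group mean ± SD. The 9 genes lie at 0.16 to 0.38 in sham rats and below 0 in all 6 ligated rats. The natural killer and cytotoxic score of 3-day rat 3 (-0.29) and the macrophage score of that rat (0.46) stand apart from those of the other 3-day rats.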

How the data were processed

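The authors deposited log2 intensities for 36685 probesets on 9 arrays. Per the submitters' processing notes they were made with Transcriptome Analysis Console and RMA, with versions, purification steps and genome build not given in the sources used here. No value was missing and nothing was renormalized. Of the probesets 18511 carried 1 symbol (18166 genes), 575 several and 17599 none. The brightest probeset stood for a gene, and testing was restricted to the 14014 genes whose mean reached 4.16, the 30th percentile over probesets. All 9 arrays entered 1 linear model in limma 3.58.1 (R 4.3.3; 6 residual and 3.59 prior degrees of freedom), tested 2-sided, with Benjamini-Hochberg adjustment and a threshold of 0.05. Precision is limited by the number of arrays: the median SE of a difference was 0.0861, and an exact permutation test of 3 against 3 rats cannot go below p = 0.1. The genes, the lists, the naming rule (all 9 genes, list genes past the test or with the smallest p, and the 5 genes most alike in pattern) and the tests were chosen with earlier results of these data known. Promoters came from RefSeq (GRCr8). Labels describe separate rats. The alternatives were no filter or one at the 50th percentile, averaged probesets, quantile normalization, median centring, array weights, trend with robust moderation, a block for the replicate number, fits of the compared groups only, a threshold of 0.1 and leaving out each array.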

Additional observations from a re-analysis of the deposited data

How the results depend on the processing

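With 3 rats a group the precision is limited. The 3-day fall of Sla2 passed under all 18 alternatives (adjusted p 0.00243 to 0.0220), and the 10-day falls of Sla2 and Cd5 under 7 of 18 each, with the causes of lost calls not tested. Of the 9 genes, 1 passed at 3 days, 3 at a threshold of 0.1 and 2 each with a filter at the 50th percentile, quantile normalization and trend with robust moderation. At 10 days 2 passed, 4 at a threshold of 0.1, and 0 each with no filter, arrays centred on their medians, and only the groups compared. Leaving out 1 array gave 0 to 2. The median difference of the 9 genes ran from -0.49 to -0.29 at 3 days, where -0.29 was without 3-day rat 1. It ran from -0.57 to -0.40 at 10 days, and from -0.21 to -0.0095 between the days, with 0 genes called.

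Over 9 pairs of rats with the same replicate number the correlation of deviations was -0.095 to 0.0837. Pairs with different numbers ran from -0.127 to 0.167. A day or batch shared by rats of the same number was not tested. With the numbers as a replicate block 1 of the 9 genes passed at 3 days and 0 at 10 days, and 264, 0 and 0 of all genes passed in the 3 comparisons.

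Of all genes 401 passed at 3 days, 709 at a threshold of 0.1, 134 with only the groups compared and 190 to 327 with 1 array left out. At 10 days 103 passed, 444 at a threshold of 0.1, 0 with no filter, 173 with a filter at the 50th percentile, 170 with quantile normalization, 26 with arrays centred on their medians, 173 with trend and robust moderation, 197 with array weights, 61 with only the groups compared and 0 to 140 with 1 array left out. Between the days 10 passed, 3 with only the groups compared and 0 to 18 with 1 array left out. Of those 10, 3 were higher and 7 lower at 10 days, against 1 and 7 with quantile normalization. No member changed direction against sham. Between the days Lat turned to 0.021 with quantile normalization and 0.033 with array weights. With 1 array left out it ran from -0.12 to 0.082, Lck from -0.12 to 0.037, Cd3d from -0.22 to 0.0094 and Cd3e from -0.21 to 0.036.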
